A study of Ovis aries with 32 samples.

Results

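Livers were compared between Tan sheep, which are kept in China and store fat in the tail, on a basal diet and others on the same diet with added succinic acid. The libraries were chosen by their labels: 4 liver libraries of the succinic acid group (SA 1 to SA 4) against 4 liver libraries of the control group (CON 1 to CON 4), 8 of the 32 RNA sequencing libraries of the study. All animals were male and 3 months old. CON sheep ate a basal pellet, and SA sheep ate that pellet with succinic acid at 1% of the dry matter, for 60 days after 10 days of adaptation, with 12 sheep per diet. The SA and CON livers came from different sheep, and each diet is represented by 4 of its 12. The libraries were made from poly(A)-selected RNA of whole liver tissue with a kit that marks strand, and the hour of tissue collection was not given in the sources used here.

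Succinate is an intermediate of the tricarboxylic acid cycle. It is oxidised to fumarate by succinate dehydrogenase, which is also complex II of the respiratory chain, and it is formed from succinyl-CoA by succinyl-CoA ligase. In ruminants much propionate from the rumen enters the cycle in the liver through methylmalonyl-CoA and succinyl-CoA, and supplies carbon for glucose. The hepatocyte, the main cell of the liver, also makes most plasma proteins and passes them through the endoplasmic reticulum on their way to the blood.

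The values were TPM, which give each gene's transcripts, corrected for transcript length, as parts of a total, and they carry no read depth. The 8 libraries differed in composition as a whole. Transcripts encoded by the mitochondrial genome held 20.2% to 27.9% of TPM in CON and 52.5% to 71.0% in SA, a difference of 35.9 percentage points (exact permutation test, two-sided p = 0.0286, the smallest that 4 against 4 allow). That this share differs between the diets was known before the test, so its p-value adds no support of its own. Rows annotated as nuclear ribosomal RNA held 0.230% to 0.785% of TPM in CON and 1.11% to 5.98% in SA, and rows without a gene symbol 19.7% to 25.6% of TPM in CON and 7.74% to 12.2% in SA. Genes at 1 TPM or more numbered 11504 to 12057 in CON and 10216 to 10611 in SA, which after removal of the mitochondrial rows became 12007 to 12754 in CON and 12141 to 13368 in SA (exact permutation test, two-sided p = 0.0286 and 0.343). SA 2 stood apart within its group: it had the highest mitochondrial and ribosomal RNA shares, and its correlation with the other SA libraries was 0.868 to 0.888, against 0.920 to 0.929 among those 3 and 0.940 to 0.959 among the CON libraries. Each gene was therefore compared on the TPM as deposited and again after the 37 mitochondrial rows were removed and every library was brought back to the same total ("rescaled"). What part these shares have in the change of any gene was not tested, because they separate the libraries exactly as the diets do.

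**Figure D1:**
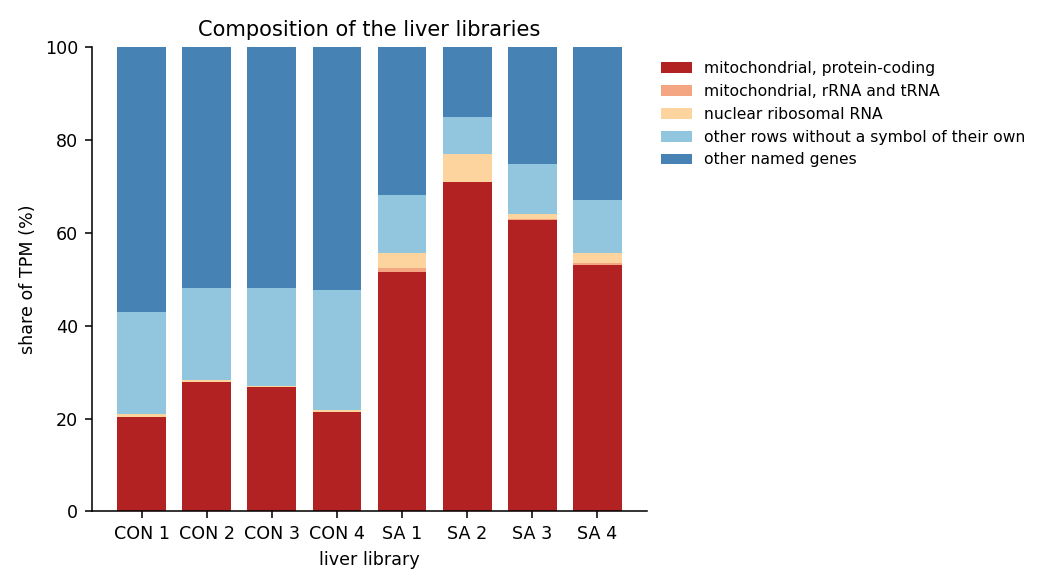
Share of TPM (percent, vertical axis) in each of the 8 liver libraries, split into protein-coding mitochondrial rows, other mitochondrial rows, nuclear ribosomal RNA rows, other rows without a symbol of their own and the remaining named genes. Mitochondrial rows make up 20.2% to 27.9% of each CON bar and 52.5% to 71.0% of each SA bar, with the highest share in SA 2.

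The tissue label was checked against hepatocyte markers. Of 46 listed markers, 40 had a row, and each of these was above 0. Albumin (ALB), the main plasma protein, stood at 67922, 57228, 57724 and 50873 TPM in the CON libraries and 17867, 3933, 16135 and 15105 TPM in the SA libraries. It was the highest named nuclear gene of the CON libraries on average, and the diets did not overlap. Markers of pancreas and gut and of neurons were near 0, with summed levels of 1.43 to 1.7 TPM in CON and 0.72 to 2.14 in SA for the first list and 1.13 to 7.43 TPM in CON and 0.71 to 1.22 in SA for the second.

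As deposited, 603 of 11582 genes tested were higher in SA and 6842 were lower (limma on log2(TPM + 1), Benjamini-Hochberg adjusted p under 0.05). These are 5.21% and 59.1% of the genes tested, and the median change over all genes was −0.83 on the log2 scale. After rescaling, 1880 of 12784 genes were higher (14.7%) and 2243 lower (17.5%), with a median change of −0.08. A gene was counted as called in both scalings when it passed in the same direction each time. By this rule 590 of 11567 genes were higher (5.10%) and 2193 lower (19.0%), and 0 genes were called in opposite directions. Of the others called lower as deposited, 4648 did not pass after rescaling. These p-values set the difference between the diets against the spread between livers of the same diet, which limma moderates across genes. In whole tissue fewer cells of a type and less RNA per cell cannot be told apart.

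Without SA 2, the rescaled test called 1966 genes higher and 2712 lower, and the rule of both scalings gave 695 higher and 2625 lower. Below, "fell" and "rose" are used of genes called in both scalings. A change is the SA mean minus the CON mean of log2(TPM + 1), a scale that understates the change of low genes, and "rescaled" marks a change or an adjusted p after rescaling. Beside each count of list members stands its percent of the members tested, to be read against the 19.0% of all genes that fell and the 5.10% that rose. A number such as "5 without CON 2" is the count when that library was left out, given where it differs by more than 1.5 times.

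**Figure D2:**
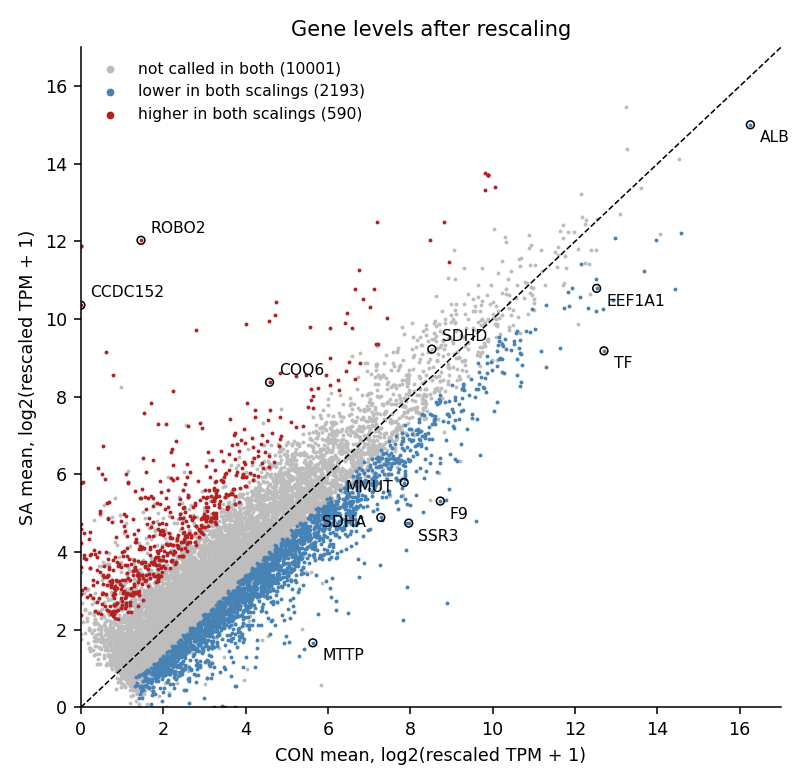
Mean rescaled level of each tested gene in CON (horizontal axis) and in SA (vertical axis), both as log2(rescaled TPM + 1), with genes called in both scalings coloured by direction and a diagonal of equal level. CCDC152 and ROBO2 lie far above the diagonal toward the left edge, and TF, F9, SSR3 and SDHA lie below it.

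Enzymes that handle succinate fell for some subunits and not for their partners. Of the tricarboxylic acid cycle list 12 of 24 fell (50%) and 0 rose, and the median rescaled change was −0.68. SDHA, the flavoprotein of succinate dehydrogenase that binds succinate, had 164, 91.7, 92.2 and 118 TPM in the CON libraries and 12.2, 9.14, 10.8 and 11.1 TPM in the SA libraries. SDHC, a membrane anchor of the same enzyme, had 203, 154, 159.7 and 181 TPM in the CON libraries and 25.5, 22.4, 18.3 and 35.7 TPM in the SA libraries. SDHB, its iron-sulfur subunit, had 133 to 173 TPM in CON and 15.3 to 44.9 in SA. These 3 subunits fell without overlap, with rescaled changes of −2.37, −1.81 and −1.32 (SE 0.22, 0.22 and 0.28, limma adjusted p = 0.000205, 0.000596 and 0.00695). The other membrane anchor, SDHD, stood at 249.5, 281, 346 and 210.4 TPM in the CON libraries and 347, 110.0, 204 and 303 TPM in the SA libraries. For SDHD the groups overlapped, and neither scaling passed (−0.28 as deposited, 0.70 rescaled).

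The ligase that interconverts succinyl-CoA and succinate showed the same kind of division. SUCLA2, its ATP-forming subunit, fell, at 7.97 to 15.9 TPM in CON and 1.45 to 2.57 in SA (rescaled −1.52, limma adjusted p = 0.003). The shared subunit SUCLG1 had 155 to 209 TPM in CON and 54.2 to 148 in SA, and the GTP-forming subunit SUCLG2 had 271 to 364 TPM in CON and 92.9 to 366 in SA. Neither of these more abundant subunits passed, with rescaled changes of 0.19 and 0.29.

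On the propionate route, methylmalonyl-CoA mutase MMUT, which makes succinyl-CoA, stood at 222, 179, 141 and 145 TPM in the CON libraries and 27.5, 6.93, 25.7 and 27.4 TPM in the SA libraries. All SA libraries were far below all CON libraries, and SA 2 was the lowest (rescaled −2.13, SE 0.33, limma adjusted p = 0.00142). ACSM1, an acyl-CoA synthetase of medium-chain acids, fell, at 432 to 841 TPM in CON and 48.9 to 75.5 in SA. MMACHC, which processes cobalamin, the cofactor of MMUT, fell too, at 14.7 to 20.5 TPM in CON and 1.69 to 4.35 in SA. The propionyl-CoA carboxylase subunit PCCA had 108 to 125 TPM in CON and 11.8 to 60.2 in SA and did not pass after rescaling (−0.63), nor did ACSM3 (0.11). In the list 3 of 14 fell (21.4%), near the 19.0% of all genes, and 0 rose.

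Among carriers, receptor and sensors of succinate, 6 of 23 fell (26.1%) and 0 rose, and the median rescaled change was −0.13, close to the −0.08 of all genes. SLC13A5, the plasma membrane carrier for citrate and succinate, fell, at 51.3 to 80.7 TPM in CON and 8.91 to 20.2 in SA (rescaled −1.48, limma adjusted p = 0.01). The mitochondrial dicarboxylate carrier SLC25A10 had 15.5 to 40.1 TPM in CON and 13.1 to 46.3 in SA. It overlapped as deposited and was higher after rescaling (1.10, limma adjusted p = 0.0255). The succinate receptor SUCNR1 was near the limit of 1 TPM, at 0.59, 1.13, 1.72 and 1.22 TPM in the CON libraries and 0.16, 0.44, 0.4 and 0.25 TPM in the SA libraries. It was too low to be tested as deposited, and after rescaling it did not pass (−0.44). HIF1A, the oxygen-sensitive transcription factor whose breakdown depends on enzymes that succinate inhibits, fell, at 11.4 to 15.6 TPM in CON and 2.41 to 4.66 in SA, and its partner ARNT fell, at 8.19 to 11.3 TPM in CON and 2.24 to 2.62 in SA. The mitochondrial citrate carrier SLC25A1 did not pass after rescaling (−0.07).

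Mitochondrially encoded genes could be tested only as deposited. That their summed share differs between the diets was known before these tests, so the p-values below add no separate support for that difference. Of 12 protein-coding genes tested, 10 were higher and 1 lower, against 5.21% and 59.1% of all genes. COX1, the catalytic subunit of cytochrome oxidase, had 32697, 45629, 45934 and 34021 TPM in the CON libraries and 100149, 151509.6, 109105 and 114180.4 TPM in the SA libraries. COX2, its copper-binding partner, had 7869, 23137, 14814 and 10166 TPM in the CON libraries and 63211, 67154, 59857 and 65617 TPM in the SA libraries. CYTB of complex III had 9476 to 15053 TPM in CON and 24544 to 39963 in SA. For these 3 genes each SA library was above each CON library, with changes of 1.59, 2.31 and 1.40 (limma adjusted p = 0.00222, 0.000737 and 0.00528). COX3 (1.76), ATP6 (1.91) and ND3 (1.87) were likewise higher without overlap. ATP8 was the lower one, at 55116, 63229, 64591 and 59738 TPM in the CON libraries and 34608, 31860.0, 40739.9 and 32983 TPM in the SA libraries (−0.80, limma adjusted p = 0.0398). The ATP8 and ATP6 genes overlap, and how reads were divided between them is not given in the sources used here, so both values are uncertain. ND6, which lies on the other strand, was listed at 0 in all 8 libraries.

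Of the nuclear-encoded subunits of the respiratory chain and ATP synthase 16 of 51 fell (31.4%) and 2 rose (3.92%, 4 without SA 2), beside 19.0% and 5.10% of all genes, with a median rescaled change of −0.41. ATP5MC3, a ring subunit of ATP synthase, had 272, 223, 296 and 274 TPM in the CON libraries and 21.8, 24.4, 34.5 and 35 TPM in the SA libraries. No SA library came near a CON library (rescaled −2.23, SE 0.26, limma adjusted p = 0.000419). UQCRC2, a core subunit of complex III, fell, at 67.5 to 88.8 TPM in CON and 14.6 to 16.6 in SA, whereas COX4I1 of cytochrome oxidase had 439 to 529.6 TPM in CON and 116 to 419 in SA and did not pass after rescaling. The 2 that rose were named for that reason after their values were seen. NDUFS8, a complex I subunit, had 28.3 to 39.3 TPM in CON and 51.4 to 133 in SA, and UQCRH of complex III had 0 to 1.19 TPM in CON and 2.02 to 3.28 in SA. The span of UQCRH overlaps that of another gene in the RefSeq gene table, at 15.7 TPM in CON on average.

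Of genes that maintain and express mitochondrial DNA, 9 of 31 fell (29.0%) and 0 rose (1 without SA 2), beside 19.0% and 5.10% of all genes. Their median rescaled change was 0.09. LRPPRC, which stabilises mitochondrial messenger RNA, fell, at 10.8 to 13.3 TPM in CON and 1.94 to 2.81 in SA (rescaled −1.27, limma adjusted p = 0.0033). Its partner SLIRP had 161 to 218 TPM in CON and 70.8 to 173 in SA and did not pass. MTERF4, which acts in mitochondrial ribosome assembly, fell, at 24.8 to 29 TPM in CON and 6.39 to 6.71 in SA. The packaging factor TFAM (4.94 to 8.33 TPM in CON and 3.8 to 6.41 in SA) and the RNA polymerase POLRMT (2.37 to 5.2 TPM in CON and 1.93 to 2.06 in SA) did not pass in either scaling, with rescaled changes of 0.51 and 0.24.

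The endoplasmic reticulum list, which holds chaperones, protein translocation parts and stress response genes, had the largest share of fallen members among the lists with 8 or more tested genes. In it 26 of 40 fell (65.0%) against 19.0% of all genes, 1 rose (2.50%, 0 without CON 1, CON 2, CON 3, SA 1 or SA 3), and the median rescaled change was −0.99 against −0.08 overall. SSR3, a subunit of the complex that assists translocation into the endoplasmic reticulum, stood at 199, 137, 162 and 247 TPM in the CON libraries and 7.06, 9.15, 11.6 and 9.96 TPM in the SA libraries. The highest SA library was more than 10 times below the lowest CON library. Its change was −4.15 (SE 0.26, limma adjusted p = 2e-05) as deposited and −3.26 (SE 0.29, adjusted p = 0.000135) rescaled.

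HSPA5, the main chaperone of the lumen, had 236, 378, 297 and 705 TPM in the CON libraries and 28.9, 32.3, 34.4 and 24 TPM in the SA libraries. CON 4 was highest among the CON livers, while the SA livers were close together and far below each of them (rescaled −2.64, SE 0.38, limma adjusted p = 0.00105). The disulfide isomerase PDIA6 stood at 146 to 199.7 TPM in CON and 15.4 to 30.7 in SA. P4HB, a disulfide isomerase that also serves in the lipid transfer complex, had 1004 to 1402 TPM in CON and 108 to 278 in SA. Calreticulin (CALR), a calcium-binding chaperone for glycoproteins, had 441 to 925 TPM in CON and 72.6 to 151 in SA. The groups did not overlap for any of these 3 genes, and all 3 fell, with rescaled changes of −1.92, −1.69 and −1.54. CREB3L3, a membrane-bound transcription factor of hepatocytes, fell as well, at 372 to 605 TPM in CON and 62.1 to 163 in SA (rescaled −1.49, limma adjusted p = 0.0106).

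Members of that list that went the other way were named after their values were seen. ATF4, a transcription factor of the integrated stress response, had 228 to 461 TPM in CON and 275 to 404 in SA, and the groups overlapped as deposited. After rescaling it was higher in SA (1.21, limma adjusted p = 0.00705). SEC61B, a subunit of the translocation channel, was likewise higher after rescaling (1.00). DDIT3, which acts downstream of ATF4, was the member that rose, at 2.16 to 3.56 TPM in CON and 3.91 to 5.07 in SA (rescaled 1.40, not called without CON 1, CON 2, CON 3, SA 1 or SA 3, limma adjusted p up to 0.0769). The span of DDIT3 overlaps that of another gene in the RefSeq gene table, at 12.3 TPM in CON on average.

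Genes that make protein in the cytosol differed by class. Among translation factors, 16 of 31 fell (51.6%) and 1 rose (3.23%, 0 without CON 1, CON 2, CON 3 or SA 1), with a median rescaled change of −0.67. EEF1A1, which brings aminoacyl-tRNA to the ribosome, stood at 4857, 4403, 3635 and 4722 TPM in the CON libraries and 397, 973, 298 and 822 TPM in the SA libraries. The highest SA library was far below the lowest CON library (rescaled −2.00, SE 0.44, limma adjusted p = 0.00753). EIF4G1, the scaffold of the cap-binding complex, had 48.5 to 97 TPM in CON and 7 to 9.31 in SA (rescaled −2.01, limma adjusted p = 0.000495). EIF6, which keeps ribosomal subunits apart, fell by 1.33 rescaled, and the alanyl-tRNA synthetase AARS1 fell by 2.02. The member that rose was EIF5B, a factor of subunit joining, at 15.2 to 21.1 TPM in CON and 24.8 to 37 in SA, named for that reason (not called without CON 1, CON 2, CON 3 or SA 1, limma adjusted p up to 0.0841).

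Cytosolic ribosomal protein genes were more often higher than lower after rescaling. Of 46 tested, 17 were then higher (37.0%) and 2 lower (4.35%), against 14.7% and 17.5% of all genes, and the list median was 0.42. As deposited 2 were higher and 20 lower, with a median of −0.55, so the direction of the list depends on the scaling. In both scalings 2 rose (4.35%, 1 to 7 without CON 2, CON 4, SA 2 or SA 4) and 2 fell (4.35%, 0 to 5 without CON 1, CON 2, CON 3, CON 4, SA 1, SA 2 or SA 3), and these were named for that reason.

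RPL30 stood at 32.2, 29.8, 39.1 and 35.8 TPM in the CON libraries and 774, 84.7, 113 and 572 TPM in the SA libraries. It rose in all SA libraries, though SA 2 and SA 3 were well below SA 1 and SA 4. RPL36 was uneven within the CON livers, at 0, 3.05, 304 and 1.81 TPM, against 1054, 46.6, 1539 and 1361 in the SA livers, so CON 3 lay above SA 2 (rescaled 7.33, not called without CON 2, CON 4 or SA 4, limma adjusted p up to 0.059). Of the pair that fell, RPL24 had 1313 to 1630.3 TPM in CON and 279 to 711 in SA (not called without CON 1, CON 2, CON 3, CON 4, SA 1 or SA 3, limma adjusted p up to 0.0877) and RPL37 had 2933 to 3873 TPM in CON and 776 to 1349 in SA (not called without CON 1, CON 2, CON 3, CON 4, SA 1 or SA 3, limma adjusted p up to 0.103). The most abundant member, RPL23A, had 3422 to 3823 TPM in CON and 1029 to 3195 in SA and did not pass after rescaling (0.16). Near-identical processed copies of ribosomal protein genes exist, and how the counting shared their reads is not given in the sources used here.

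Of mitochondrial ribosomal proteins 15 of 65 fell (23.1%, 8 without CON 3) and 6 rose (9.23%, 12 without SA 2), against 19.0% and 5.10% of all genes. After rescaling 16 of 65 were higher (24.6%) and 15 lower (23.1%), against 14.7% and 17.5%, and the median change was −0.20. Their summed level was 1408 to 1503 TPM in CON and 692 to 1372 in SA. Rescaled, it was 1820 to 2089 in CON and 2408 to 3035 in SA. Neither overlapped, and the direction of the sum depends on the scaling. MRPL40 rose, at 32.4 to 45.5 TPM in CON and 70.6 to 152 in SA, whereas MRPL45 fell, at 19.2 to 23.4 TPM in CON and 3.18 to 5.21 in SA, and MRPS27 fell, at 9.6 to 15.7 TPM in CON and 1.41 to 2.78 in SA. MRPL24 had 47.5 to 50.8 TPM in CON and 26.5 to 78.3 in SA and was higher after rescaling only (1.10).

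In the proteasome, which breaks down tagged proteins, 18 of 42 fell (42.9%) and 0 rose, and the median rescaled change was −0.56. The base subunit PSMC2 stood at 38.7, 41.9, 45.1 and 49.3 TPM in the CON libraries and 4.17, 5.31, 4.62 and 7.21 TPM in the SA libraries. PSMD2, another base subunit, had 26.1 to 51.6 TPM in CON and 3.05 to 4.16 in SA. Neither overlapped between diets. PSMD6, the highest member, had 134 to 244 TPM in CON and 39.7 to 106 in SA and did not pass after rescaling (−0.64, limma adjusted p = 0.204).

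Secreted plasma proteins of the hepatocyte fell in part. In the list of identity and secreted genes 16 of 40 fell (40.0%) and 0 rose, with a median rescaled change of −0.82. The summed level of the list was 124465 to 152184 TPM in CON and 16440.3 to 56518 in SA, and rescaled it was 161158 to 195056 in CON and 60532 to 143708 in SA, so the diets did not overlap in either. ALB alone supplied a large part of these sums, with rescaled levels of 65871 to 87057 in CON and 14482 to 45053 in SA. Transferrin (TF), the iron carrier of plasma, had 6671, 4475, 4269.8 and 4556 TPM in the CON libraries and 286, 177, 199.9 and 222 TPM in the SA libraries. Coagulation factor F9 stood at 377, 287, 309 and 290.1 TPM in the CON libraries and 13.2, 16.7, 14.9 and 10.5 TPM in the SA libraries. Both separated the diets by more than 10-fold as deposited, and their rescaled changes were −3.51 and −3.51 (SE 0.23 and 0.30, limma adjusted p = 2.46e-05 and 0.000111). The terminal complement subunits C8A (156 to 193 TPM in CON and 6.81 to 11.2 in SA) and C8B (252 to 482 TPM in CON and 10.9 to 19.9 in SA) fell with them. So did the fibrinogen chain FGB (13360.5 to 23483 TPM in CON and 1187 to 2426 in SA) and the pentraxin CRP (2182 to 2838 TPM in CON and 328 to 536 in SA).

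Other abundant plasma proteins did not pass after rescaling. SERPINA1, the main elastase inhibitor of plasma, had 4086 to 5028 TPM in CON and 1015 to 3306 in SA, and after rescaling the groups were level (SE 0.27, limma adjusted p = 0.995). Transthyretin (TTR), a carrier of thyroid hormone, had 7786 to 11011 TPM in CON and 802 to 6242 in SA, and the apolipoprotein APOA1 had 3660.3 to 4196 TPM in CON and 678 to 2134 in SA. Their rescaled changes were −0.44 and −0.70, and neither passed, nor did vitronectin (VTN, 0.30), APOB (−0.49) or the secreted phosphoprotein SPP2 (0.43). APOC3, an apolipoprotein of triglyceride-rich particles, stood at 4271 to 9990.5 TPM in CON and 3606 to 10887 in SA and was higher after rescaling (1.13, limma adjusted p = 0.0322). The iron hormone HAMP varied widely inside each diet, at 380.1, 808, 1266 and 2166 TPM in CON and 1583, 423, 341 and 719 in SA, and did not pass.

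Among complement genes 8 of 17 fell (47.1%, 5 without CON 2, CON 3 or CON 4) and 0 rose, and among acute phase genes 7 of 13 fell (53.8%). C1R, a protease of the classical complement pathway, fell, at 1361 to 1587 TPM in CON and 112 to 494 in SA. Its rescaled adjusted p in limma was 0.0125, and 0.212 in a joint fit of all 32 libraries, where it was not called. CFB of the alternative pathway had 1422 to 1649 TPM in CON and 180.2 to 646 in SA and a rescaled adjusted p of 0.0539 in limma.

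**Figure D3:**
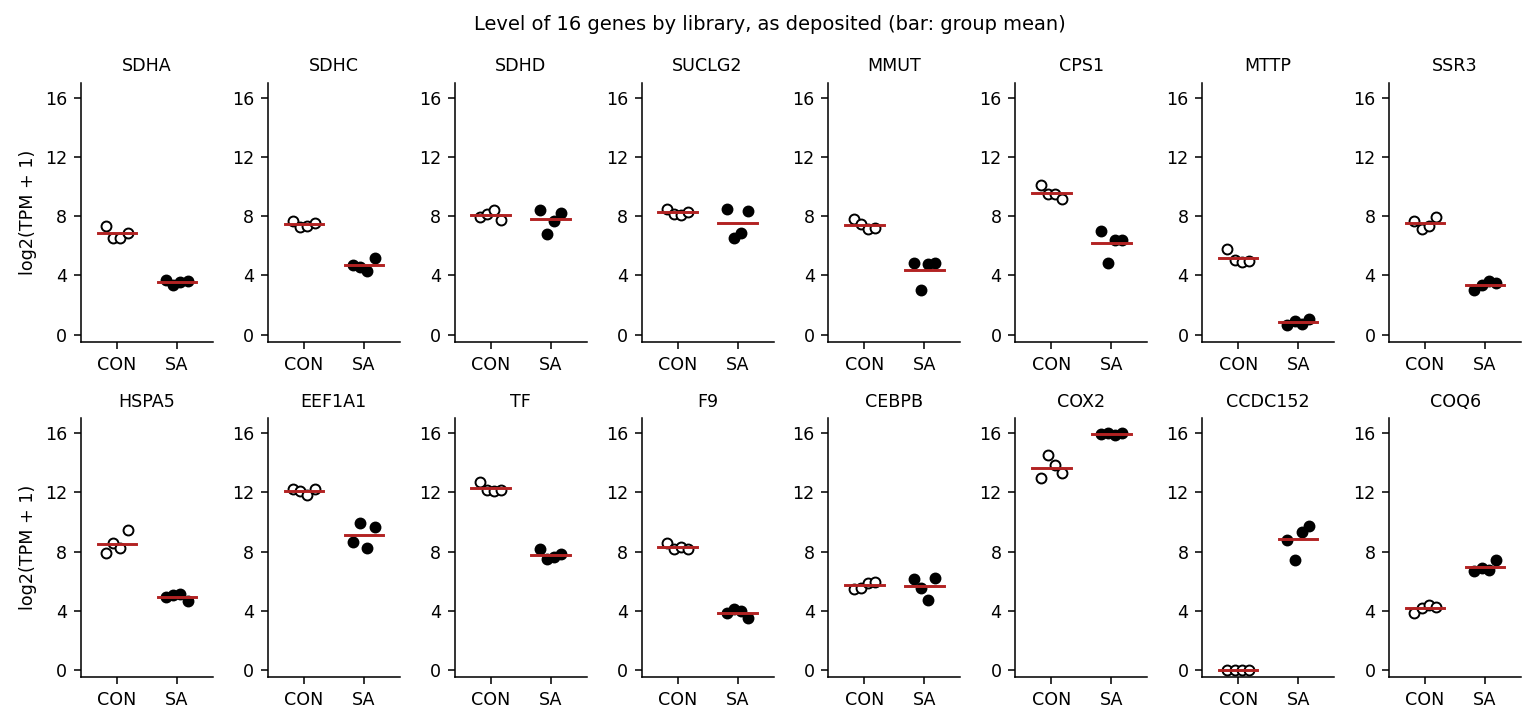
Level of 16 genes in each liver library, as log2(TPM + 1) on the vertical axis, with open circles for CON, filled circles for SA and a bar at each group mean. SDHA, SDHC, MMUT, SSR3, HSPA5, EEF1A1, TF, F9, MTTP and CPS1 show every SA library below every CON library, SDHD, SUCLG2 and CEBPB overlap, and COX2, CCDC152 and COQ6 lie higher in SA.

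The fat oxidation, fat synthesis and cholesterol lists had shares near or below those of all genes. In mitochondrial fatty acid oxidation 6 of 25 fell (24.0%), in peroxisomal oxidation 3 of 28 fell (10.7%), in fatty acid and triglyceride synthesis 6 of 31 fell (19.4%, 3 without CON 3 or CON 4) and in cholesterol synthesis and uptake 5 of 31 fell (16.1%). Within them single genes moved. ETFDH, which passes electrons from fatty acid oxidation to ubiquinone, had 113 to 188 TPM in CON and 10.6 to 18 in SA, and the carnitine transferase CPT2 had 52.1 to 81.6 TPM in CON and 8.45 to 19.6 in SA. Both fell. CPT1A, the regulated entry enzyme, had 71.6 to 124 TPM in CON and 42.1 to 75.7 in SA and a rescaled change of 0.06. ACAT1, which acts in ketone formation and use, fell by 1.45 rescaled.

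The lipid droplet protein PLIN2 stood at 347, 177, 311 and 272 TPM in the CON libraries and 12, 31.6, 72.2 and 59.2 TPM in the SA libraries. It fell by 1.91 rescaled (limma adjusted p = 0.0268; not called without CON 1, CON 3 or CON 4, limma adjusted p up to 0.0678). The phosphatidate phosphatase LPIN2 fell, at 20.7 to 37.9 TPM in CON and 2.38 to 3.33 in SA. FASN, the fatty acid synthase, was low in all livers (0.99 to 1.95 TPM in CON and 0.48 to 2.32 in SA) and did not pass. MLXIPL, a carbohydrate-sensing transcription factor, was the one member of its list that rose (2 members without SA 2), at 6.86 to 10.1 TPM in CON and 15.8 to 20.6 in SA, and was named for that reason. The peroxisomal catalase CAT had 2448 to 4840.2 TPM in CON and 1719.6 to 6926 in SA with overlapping groups as deposited, and the sterol carrier SCP2 was higher after rescaling (1.80, limma adjusted p = 0.00317).

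In the lipoprotein assembly list 4 of 10 fell (40%) and 1 rose (10%), against 19.0% and 5.10% of all genes. MTTP, which loads lipid onto lipoproteins, had 53.3, 32.5, 29.7 and 30.4 TPM in the CON libraries and 0.58, 0.88, 0.65 and 1.06 TPM in the SA libraries. Its rescaled change was −3.98 (SE 0.27, limma adjusted p = 2.69e-05). The lipase LIPG fell, at 31.7 to 103 TPM in CON and 0.32 to 2.77 in SA. ANGPTL8, an inhibitor of lipoprotein lipase named after its values were seen, rose, at 4.02 to 12.6 TPM in CON and 18.7 to 84.3 in SA; its span overlaps that of DOCK6 in the RefSeq gene table. CYP27A1 of bile acid synthesis fell, at 137 to 208 TPM in CON and 8.98 to 25.1 in SA, and CYP7A1 (2.06 to 6.69 TPM in CON and 0.5 to 5.58 in SA) did not pass.

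In carbohydrate metabolism 11 of 33 fell (33.3%) in the glycolysis list and 8 of 25 fell (32.0%) in the gluconeogenesis and glycogen list, and 0 rose in either (1 of the glycolysis list without SA 2). GPI, the isomerase of glucose 6-phosphate, had 52.1 to 60.2 TPM in CON and 7.65 to 10.7 in SA, and PGK1, a later glycolytic enzyme, had 63.2 to 78.5 TPM in CON and 12.4 to 21 in SA. UGP2, which makes the glycogen precursor, had 89.1 to 141 TPM in CON and 7.25 to 19.6 in SA. All 3 fell without overlap. Pyruvate carboxylase (PC), which feeds pyruvate into the cycle and into glucose synthesis, fell, at 238 to 328 TPM in CON and 27.3 to 88.7 in SA (not called without CON 1, limma adjusted p 0.0536). PCK1, the next enzyme on the way to glucose, had 1370.0, 674, 471 and 318 TPM in the CON libraries and 614, 62.6, 121 and 392 TPM in the SA libraries. The diets overlapped, and neither scaling passed (−1.55 and −0.58). FBP1 (−1.04, limma adjusted p = 0.0555) and GAPDH (−0.34) did not pass after rescaling. The transcription factor FOXO1, which drives glucose production when insulin is low, fell, at 7.61 to 10.2 TPM in CON and 0.61 to 1.23 in SA.

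CPS1, the first enzyme of the urea cycle, had 1101, 709, 709 and 586 TPM in the CON libraries and 126, 28.1, 84.1 and 83.8 TPM in the SA libraries. It fell by 2.43 rescaled (limma adjusted p = 0.000911), and SA 2 was lowest. In its list of urea cycle and amino acid enzymes 12 of 46 fell (26.1%, 7 without CON 1 or CON 2) and 0 rose. HAL, which opens histidine breakdown, fell, at 43.4 to 90.3 TPM in CON and 2.69 to 10.1 in SA. The tyrosine enzyme HPD had 1046 to 2538 TPM in CON and 301 to 1640.3 in SA and did not pass after rescaling. In branched-chain amino acid breakdown 8 of 17 fell (47.1%), among them MCCC2, a subunit of the leucine pathway carboxylase, at 7.49 to 11.4 TPM in CON and 0.9 to 2.22 in SA.

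Position along the liver lobule was described with 2 marker lists. Of periportal genes, 10 of 17 fell (58.8%), with a median rescaled change of −1.27. Of pericentral genes, 4 of 14 fell (28.6%, 2 without CON 1), with a median of −0.48. The difference between the lists was not tested. The periportal adhesion protein CDH1 had 81.2, 59.8, 44 and 70.7 TPM in the CON libraries and 9.63, 2.82, 7.84 and 4.68 TPM in the SA libraries. All SA livers were below all CON livers. Among pericentral genes CYP3A24 fell, at 1059.9 to 1453 TPM in CON and 118 to 280.2 in SA, while CYP2E1 (4861 to 10707 TPM in CON and 883 to 5223 in SA) and LECT2 (1879 to 3071 TPM in CON and 692 to 2170.2 in SA) did not pass after rescaling. SA 2 had the lowest rescaled level of the 4 SA livers for 22 of 30 xenobiotic and 26 of 46 urea cycle and amino acid genes, against 21.4% of all genes tested.

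**Figure D4:**
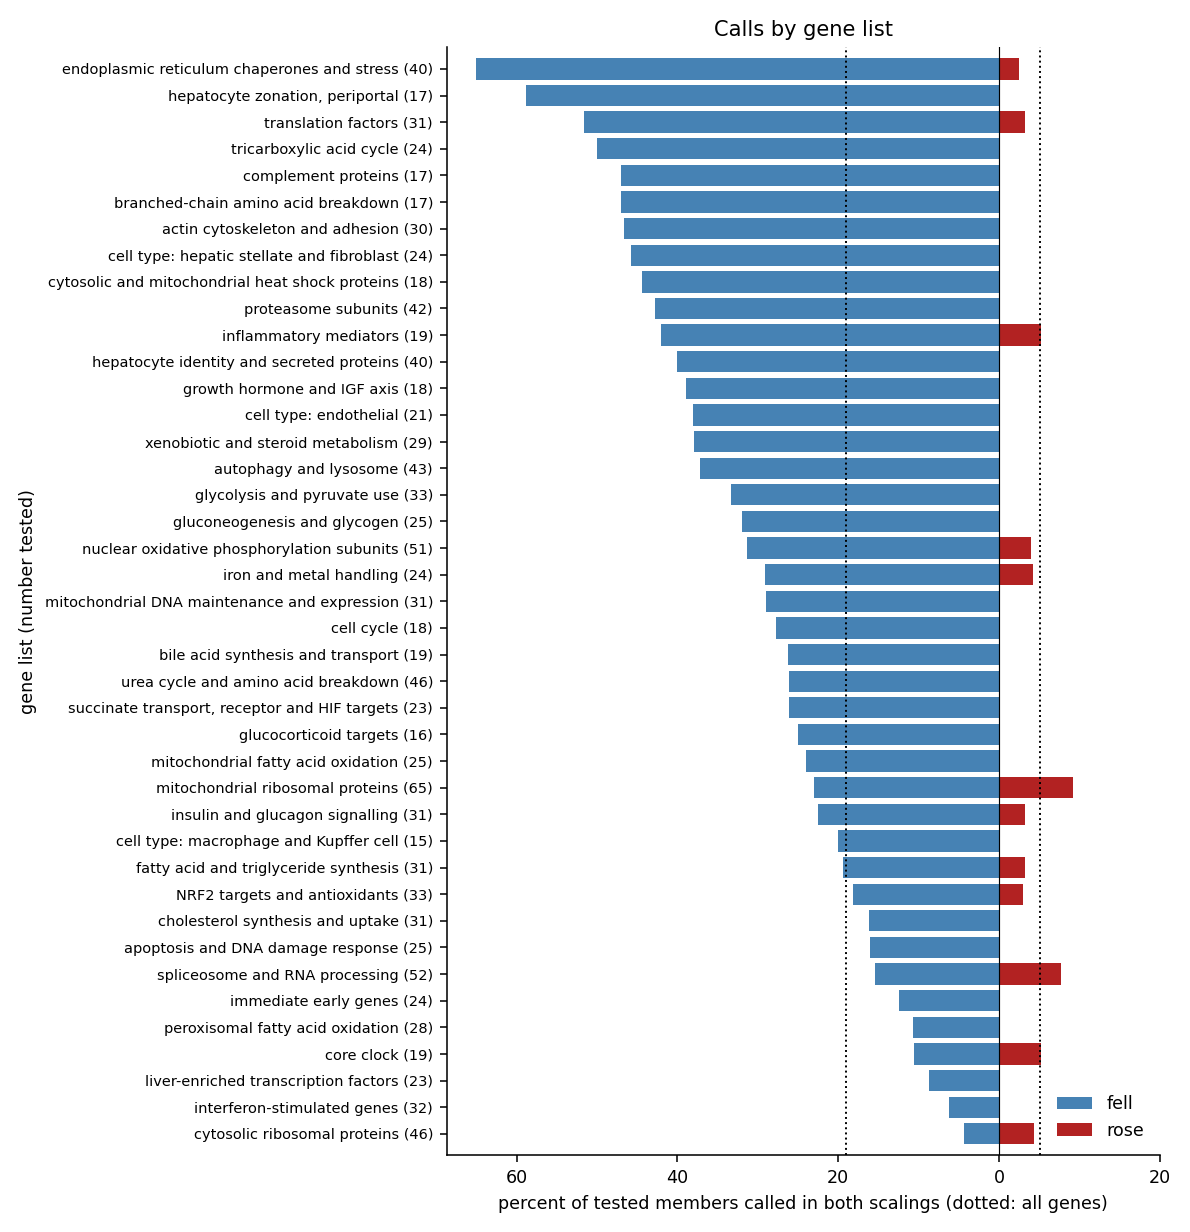
Percent of tested members that fell (bars to the left) and rose (bars to the right) in both scalings for the gene lists with 15 or more tested genes, ordered by the percent that fell; dotted lines mark 19.0% and 5.10%, the percentages of all genes. The endoplasmic reticulum list is at the top with 65.0% fallen, and interferon-stimulated genes, with 6.25%, are near the bottom.

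Liver-enriched transcription factors mostly did not pass after rescaling, where 5 of 24 were higher (20.8%) and 2 lower (8.33%). Among all genes 14.7% were then higher and 17.5% lower. As deposited 12 of 23 were lower and 0 higher, against 59.1% and 5.21% of all genes. In both scalings 2 of 23 fell (8.70%, 1 without CON 2, CON 3 or SA 1) and 0 rose. The median rescaled change was 0.14 and the median as deposited −0.70, so the sign of the list depends on the scaling. HNF4A, a nuclear receptor that maintains hepatocyte identity, had 111, 75.5, 79.3 and 43.5 TPM in the CON libraries and 29.8, 21.5, 27.7 and 40.9 TPM in the SA libraries. It was lower as deposited (−1.30) and did not pass after rescaling (−0.35, SE 0.29, limma adjusted p = 0.384). CEBPB (44.1 to 61.5 TPM in CON and 24.9 to 73.2 in SA) and ATF5 (44.9 to 94 TPM in CON and 32 to 86.5 in SA) overlapped as deposited and were higher after rescaling only. FOXA2 (rescaled 0.89) and CEBPA (rescaled 0.34) passed in neither scaling. PPARA was lower as deposited (−1.48) and did not pass after rescaling (−0.68). The 2 that fell were CREB3L3 and NR5A2, a receptor of bile acid and cholesterol genes, at 5.71 to 7.59 TPM in CON and 1.42 to 2.67 in SA (not called without CON 2, CON 3, CON 4, SA 1 or SA 4, limma adjusted p up to 0.109).

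In the growth hormone and IGF axis 7 of 18 fell (38.9%, 4 without CON 2). The growth hormone receptor GHR stood at 252, 233, 223 and 322 TPM in the CON libraries and 48.6, 33.9, 43.2 and 80.3 TPM in the SA libraries. It fell without overlap, by 1.39 rescaled (limma adjusted p = 0.00194). IGFBP1, an IGF-binding protein induced by fasting, had 1307, 80.4, 60.5 and 19.6 TPM in the CON libraries and 3.6, 0.57, 1.02 and 4.05 TPM in the SA libraries. CON 1 was more than 10 times above the other CON livers, yet each SA liver was below each CON liver (rescaled −4.66, SE 1.13, limma adjusted p = 0.0155). Without CON 1 the change as deposited was −4.00 (limma adjusted p = 0.000741), against −5.20 with it. IGFBP2 (−0.46) and IGFBP4 (0.37) did not pass after rescaling.

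Genes of insulin and glucagon signalling had shares near those of all genes: 7 of 31 fell (22.6%, 4 without CON 1, CON 2, CON 3, CON 4, SA 1 or SA 4) and 1 rose (3.23%, 0 without CON 1 or SA 1). The insulin receptor INSR fell, at 19.2 to 38 TPM in CON and 6.17 to 10 in SA (not called without CON 1, CON 4 or SA 4, limma adjusted p up to 0.0689). The glucagon receptor GCGR had 26.2 to 47 TPM in CON and 20.8 to 49.2 in SA and was higher after rescaling only (0.94). FGF21, a hepatic hormone of fasting and protein shortage, had 28.4 to 58.4 TPM in CON and 21 to 79.5 in SA and did not pass (rescaled 1.22, limma adjusted p = 0.0573). PDK4, a brake on pyruvate oxidation that rises in fasting, fell, at 1086, 307, 380.0 and 224 TPM in CON and 75.5, 47.1, 48.4 and 43.3 in SA, and CON 1 was again highest. CON 1 had the highest rescaled level among the CON livers for 16 of 26 gluconeogenesis genes and 29 of 46 urea cycle and amino acid genes, against 21.4% of all genes tested. Of core clock genes 2 of 19 fell (10.5%, 1 to 4 without CON 2, CON 3, CON 4 or SA 2) and 1 rose (5.26%, 0 without CON 1, CON 2, CON 3, CON 4, SA 1, SA 2 or SA 4), and those that fell were BHLHE40 and CSNK1E. CSNK1E was not called without CON 2 or CON 3, limma adjusted p up to 0.0565. The repressor BHLHE40 had 57.3 to 116 TPM in CON and 12.8 to 22.3 in SA, and PER3 did not pass after rescaling (−0.01).

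Of the 590 genes that rose, 46.8% had no gene symbol of their own (none, or one that a row of higher level also carries), against 18.5% of genes tested and 13.1% of those that fell. CCDC152, a coiled-coil gene that is the next symbol beside SELENOP in the RefSeq gene table, was listed at 0 in all CON livers and stood at 448, 168, 645 and 842 TPM in the SA livers. SELENOP, the selenium carrier of plasma, had 5758, 4976, 4686 and 4282 TPM in the CON libraries and 689, 241, 297 and 773 TPM in the SA libraries. SELENOP fell. The spans of the pair do not overlap in that table, but the genome build used for the counting is not given in the sources used here. How the counting divided reads between the pair therefore cannot be told. RCN3, a calcium-binding protein of the secretory pathway, was listed at 0 in the CON livers and had 9.77, 32.2, 15.9 and 14.1 TPM in SA.

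The cadherin gene DCHS2 had 2.95, 1.35, 2.3 and 1.31 TPM in the CON libraries and 70.5, 57.8, 37.9 and 70.1 TPM in the SA libraries. CCDC191, a centrosome protein, had 0.02 to 0.48 TPM in CON and 17.9 to 43.9 in SA. COQ6, an enzyme of ubiquinone synthesis, stood at 13.4, 17.1, 19.6 and 18.1 TPM in the CON libraries and 101, 117, 108 and 168 TPM in the SA libraries, with every SA library more than 5 times above every CON library (rescaled 3.76, SE 0.26, limma adjusted p = 3.11e-05). DCHS2 and COQ6 rose without overlap, and CCDC191 rose. CEP295, a centriole protein, rose, at 4.06 to 6.61 TPM in CON and 22.4 to 31.8 in SA. The sperm fibrous sheath gene CABYR (2.5 to 5.32 TPM in CON and 19.3 to 32.1 in SA) and the cilium genes CFAP99 (1.34 to 1.57 TPM in CON and 8.22 to 27.3 in SA) and RIBC1 (0.92 to 2.36 TPM in CON and 9.41 to 23.2 in SA) rose too. Other genes among the smallest p-values were CNTD1, ABHD12B, FAM174C, C3orf70 and LSMEM1, all low in CON, where C3orf70 was highest, at 0.43, 2.64, 5.85 and 2.01 TPM. CCDC191, CCDC152, RCN3, CNTD1, FAM174C and LSMEM1 were below 1 TPM in every CON liver. They passed the filter only through SA livers, which fixed their lack of overlap beforehand, so it adds no support.

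For 3 abundant rows the libraries of a diet were far apart. The row named ROBO2 was at 0.94, 1.7, 1.13 and 1.42 TPM in CON and 2232, 2874, 47.3 and 534 in SA, with SA 3 lowest. The row named EPHX4 was at 0, 564, 732 and 0 TPM in CON and 2421, 960.1, 2776 and 3102 in SA (not called without CON 1, CON 4, SA 1, SA 2, SA 3 or SA 4, limma adjusted p up to 0.113). The row named ADAMTS4, the highest named nuclear row of the SA libraries on average, was at 6994, 6714, 7885 and 6942 TPM in CON and 29621, 6137, 12386 and 26428 in SA. It overlapped as deposited and was higher after rescaling (2.11).

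Rows of ribosomal RNA rose as well. The 3 tested rows named 5S_rRNA held identical values, listed at 0 in the CON livers and at 1349, 2614, 454 and 526 TPM in SA, and 5_8S_rRNA had 312 to 1462 TPM in CON and 1736 to 9181 in SA. Removing all rows of ribosomal RNA too, an alternative chosen after seeing the data, left 2040 genes higher and 1616 lower of 12857 tested, with a median change of 0.03.

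Gene size was described with the RefSeq gene table for sheep (assembly ARS-UI_Ramb_v3.0), which matched 9796 of 10184 tested symbols (96.2%). Genes were divided into 5 groups of equal number by the length of their span in the genome. In the shortest group the median rescaled change was 0.09, with 18.9% higher and 14.0% lower. In the longest group it was −0.23, with 9.60% higher and 21.8% lower. The median span was 20287 bases for genes higher after rescaling, 34507 for genes lower and 28323 for genes that did not pass.

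**Figure D5:**
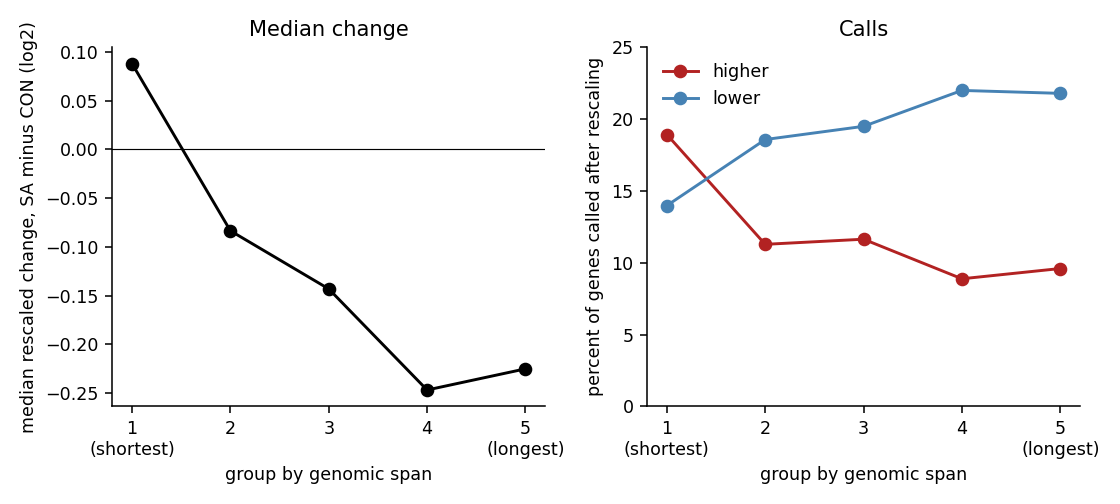
Median rescaled change (left panel, log2 scale) and percent of genes called higher or lower after rescaling (right panel) for 5 groups of equal number by genomic span, from shortest to longest. The median goes from 0.09 in the shortest group to −0.23 in the longest, and the percent called lower from 14.0 to 21.8.

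Genes can also share ground with a neighbour. Among 1423 genes whose span overlaps that of another named gene, 4.85% rose, against 2.84% of the 7643 without an overlap. ABHD12B overlaps the glycogen phosphorylase gene PYGL, at 232 ± 39 TPM in CON (SD, n = 4). CNTD1 overlaps the autophagy gene BECN1, at 24.2 ± 0.502 TPM in CON. Both partners were named for their position, and as deposited both had lower means in SA, at 49.9 TPM for PYGL and 9.80 TPM for BECN1. UQCRH, DDIT3, CABYR and LSMEM1, which rose, also overlap other named genes, at 15.7, 12.3, 27.9 and 9.9 TPM in CON on average. The table gives no strand, and whether the counting used strand is not given in the sources used here, so reads of such pairs cannot be told apart.

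RNA processing genes had shares near the 19.0% and 5.10% of all genes: 8 of 52 fell (15.4%) and 4 rose (7.69%, 2 without CON 1, CON 4 or SA 3). HNRNPM, a nuclear RNA-binding protein, fell, at 53.5 to 73 TPM in CON and 8.94 to 11.1 in SA, and the spliceosome helicase SNRNP200 fell, at 12.9 to 19.5 TPM in CON and 1.83 to 2.96 in SA. HNRNPA2B1 did not pass after rescaling (0.09). The 4 that rose were SRSF11, LUC7L3, CLK1 and CLK4, named for that reason. CLK4, a kinase of splicing factors, stood at 9.8, 13.6, 14 and 6.72 TPM in the CON libraries and 44.9, 39.1, 39.3 and 41.6 TPM in the SA libraries. The SA livers were within a narrow band above all CON livers (rescaled 2.85, limma adjusted p = 0.000239). CLK1, its close relative, had 11.1 to 28.8 TPM in CON and 25.5 to 62.7 in SA (not called without CON 1, CON 4 or SA 3, limma adjusted p up to 0.0766). LUC7L3, a splicing factor, had 6.91 to 11.1 TPM in CON and 12.2 to 22.1 in SA (not called without CON 1, CON 2, CON 4 or SA 3, limma adjusted p up to 0.0896).

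Among falling genes with the smallest p-values were several outside the lists. The RNA-binding gene RBM12B was at 4.49, 5.98, 5.69 and 4.49 TPM in CON and 0.15, 0, 0.14 and 0 in SA. SEBOX, a homeobox gene, was at 8.01, 7.71, 7.79 and 7.11 TPM in CON and listed at 0 in all SA livers. The phospholipase PLA1A had 69.4 to 100.4 TPM in CON and 2.31 to 4.5 in SA, and MR1, which presents vitamin metabolites to T cells, had 9.89 to 11.3 TPM in CON and 1.36 to 1.68 in SA. The groups did not overlap for PLA1A and MR1. RBM12B and SEBOX were below 1 TPM in every SA liver, so they passed the filter only through CON livers. That filter fixed their lack of overlap beforehand, so it adds no support. C2orf72, PTRHD1, GTF3C6 and PUM2 belonged to the same set, with rescaled changes of −3.43, −1.94, −2.25 and −1.74.

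Stress and quality-control genes fell in part. In the autophagy and lysosome list 16 of 43 fell (37.2%, 9 to 10 without CON 2 or CON 3). LAMP2, a protein of the lysosome membrane, had 143 to 175 TPM in CON and 15.3 to 21 in SA, and GABARAPL1, which coats autophagosomes, had 222 to 471 TPM in CON and 19.5 to 30 in SA. Both fell without overlap. GABARAP, a close relative of GABARAPL1, had 309 to 369.6 TPM in CON and 113 to 579 in SA and did not pass. Among cytosolic and mitochondrial heat shock proteins 8 of 18 fell (44.4%), with HSPA8 at 352 to 823 TPM in CON and 97.5 to 138 in SA and the mitochondrial HSPA9 at 70.5 to 98.9 TPM in CON and 12.2 to 17.1 in SA.

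Among antioxidant genes 6 of 33 fell (18.2%) and 1 rose (3.03%, 2 without SA 2), shares near those of all genes. PRDX4, the peroxiredoxin of the endoplasmic reticulum, fell, at 56.5 to 79.5 TPM in CON and 5.69 to 18.5 in SA, and SQSTM1, an autophagy receptor, fell, at 139 to 152 TPM in CON and 24.2 to 31.7 in SA. GPX4, which removes lipid peroxides, was the member that rose, at 112, 127, 104 and 94.4 TPM in the CON libraries and 277, 142, 237 and 382 TPM in the SA libraries, and was named for that reason. HMOX1 (−0.39), which breaks down heme, and the ferritin chain FTH1 (0.40) did not pass after rescaling. FECH, the last enzyme of heme synthesis, fell by 1.74 rescaled. In the actin and adhesion list 14 of 30 fell (46.7%), with the adherens junction protein CTNNB1 at 42.9 to 56.4 TPM in CON and 3.5 to 6 in SA and the hepatocyte keratin KRT8 at 93.7 to 123 TPM in CON and 9.35 to 20.5 in SA.

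Of inflammatory mediators 8 of 19 fell (42.1%, 3 to 5 without CON 1, CON 2, CON 3, CON 4, SA 1, SA 3 or SA 4) and 1 rose (5.26%), with the interleukin-6 receptor IL6R lower, at 39.9 to 58 TPM in CON and 3.95 to 7.1 in SA. Of interferon-stimulated genes 2 of 32 fell (6.25%). One of them was B2M, the light chain of class I molecules, at 435 to 866 TPM in CON and 50.3 to 138 in SA. Of immediate early genes 3 of 24 fell (12.5%, 5 without SA 2), with MYC at 18.7 to 50.7 TPM in CON and 1.25 to 4.88 in SA, and IER2, at 164 to 343 TPM in CON and 22.5 to 391 in SA, did not pass.

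Markers of other liver cells fell in part as well, and their part in the results above was not tested. Of stellate and fibroblast markers 11 of 24 fell (45.8%), and their summed level was 665 to 1275 TPM in CON and 148 to 426 in SA. After rescaling the sums overlapped slightly, at 924 to 1794 in CON and 525 to 940.4 in SA. CON 2 had the highest rescaled level among the CON livers for 22 of 24 stellate and 17 of 21 endothelial markers, against 4270 of 12784 genes tested. The matrix protein SPARC had 188, 225, 106 and 199 TPM in the CON libraries and 13.8, 17, 6.13 and 16.5 TPM in the SA libraries. The collagen gene COL1A1 had 16.6 to 29.4 TPM in CON and 1.7 to 5.32 in SA, and neither overlapped. Of endothelial markers 8 of 21 fell (38.1%), with a summed level of 422 to 613 TPM in CON and 102 to 173 in SA. Rescaled, the sums overlapped, at 543 to 862 in CON and 284 to 621 in SA. CDH5, the cadherin of endothelial junctions, fell, at 16.8 to 22.5 TPM in CON and 2.1 to 4.25 in SA, while STAB2, a scavenger receptor of sinusoids, did not pass after rescaling (−1.09, limma adjusted p = 0.0599). Of macrophage markers 3 of 15 fell (20%, 1 to 7 without CON 2, CON 3, SA 2 or SA 4), namely CSF1R, SLC40A1 and CYBB, with a summed level of 930.0 to 1495 TPM in CON and 300.1 to 534 in SA. Rescaled, these sums overlapped too, at 1192 to 2078 in CON and 650.0 to 1816 in SA. The scavenger receptor CD163 had 52.5 to 200.2 TPM in CON and 13.6 to 36.8 in SA and did not pass after rescaling (−0.99), nor did C1QA (−0.16). CSF1R was not called without CON 2, CON 3, CON 4 or SA 4, limma adjusted p up to 0.0621, and SLC40A1 was not called without CON 1, CON 2, CON 3, SA 1 or SA 4, limma adjusted p up to 0.0792.

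Markers of lymphocytes, granulocytes and red cells were low. T and NK cell markers summed to 27.1 to 75.2 TPM in CON and 7.78 to 28 in SA, and 3 of 9 fell (33.3%, 1 without CON 2, CON 3, SA 1 or SA 3), namely CD3D, CD3G and IL7R. CD3D was not called without CON 2, CON 3, SA 1 or SA 3, limma adjusted p up to 0.0866, and CD3G was not called without CON 2, CON 3, CON 4, SA 1, SA 3 or SA 4, limma adjusted p up to 0.109. Neutrophil markers summed to 5.12 to 31.2 TPM in CON and 0.94 to 32.5 in SA, B and plasma cell markers to 14.1 to 47.5 TPM in CON and 15.6 to 28.1 in SA, and erythroid markers to 20.6 to 42.8 TPM in CON and 11 to 48.2 in SA. Of cholangiocyte markers 2 of 13 fell (15.4%, 0 to 4 without CON 1, CON 2, CON 3, CON 4, SA 1, SA 2, SA 3 or SA 4), AQP1 (not called without CON 1, CON 2, CON 4, SA 1 or SA 4, limma adjusted p up to 0.107) and TFF2 (not called without CON 3, CON 4, SA 3 or SA 4, limma adjusted p up to 0.093), and after rescaling 3 were higher, among them ANXA4 (91.2 to 124 TPM in CON and 96.6 to 166 in SA). After rescaling 3 of 14 tested cholangiocyte markers were higher (21.4%) and 2 lower (14.3%), against 14.7% and 17.5% of all genes. Cholangiocyte markers summed to 182 to 266 TPM in CON and 139 to 201 in SA, which overlapped. Rescaled, their sums were 233 to 344 in CON and 389 to 580 in SA, higher in SA without overlap. The 14 adipocyte markers with a row summed to 271 to 457 TPM in CON and 118 to 226 in SA, or rescaled 374 to 611 in CON and 256 to 537 in SA. As deposited 4 of 8 tested were lower, after rescaling 2 of 9 were higher, and 0 passed in both. Their hormones ADIPOQ and LEP were at no more than 0.07 TPM in any liver. Skeletal muscle markers summed to 2.6 to 3.06 TPM in CON and 3.23 to 20.2 in SA.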

How the data were processed

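Polyadenylated RNA of 32 libraries from 4 tissues was sequenced with a stranded kit, per the labels' protocols, and the 8 liver libraries were compared. The submitters' processing notes name fastp, HISAT2 and RSEM, without role or version. For the strand setting and the genome build, the sources used here give nothing. The authors deposited TPM, per the file headers, in 30722 rows. The liver columns summed to 978286 to 986216 TPM in CON and 936939 to 975514 in SA (exact permutation test, two-sided p = 0.0286), short of the nominal 1000000, so rows may be missing from the table as used here. RNA quality per library was not part of the labels. TPM carry no read depth, so no counting interval could be given, and a gene's TPM falls when other genes take more.

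A gene entered the fit when 4 or more libraries held it at 1 TPM or above. The test used limma 3.58.1 in R 4.3.3 on log2(TPM + 1), with trend and robust settings, two-sided, with Benjamini-Hochberg adjustment at 0.05. The fit was repeated without 37 mitochondrially encoded rows, each library rescaled to 1000000. "Fell" and "rose" mean past the threshold in both. Values per library had exact permutation tests of the difference of means (numpy 2.4.6). The fit was tested on simulated data. Gene spans came from the RefSeq table for ARS-UI_Ramb_v3.0, used for lengths and neighbours only.

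Members and gene lists were chosen with earlier results of these data known. Named genes were a set panel of liver, succinate and mitochondrial genes, the 15 of smallest p in each direction past both thresholds, up to 4 members of each list (2 of smallest p, 2 of highest TPM), the 10 of highest TPM in each diet, and the 10 of largest non-overlapping difference of medians. Other genes were named after their values were seen: ABCC2, ADIPOQ, ANGPTL8, ATF4, BECN1, CD3G, CLK1, CLK4, CSF1R, DDIT3, DOCK6, EIF5B, G6PC1, GPX4, LEP, LUC7L3, MLXIPL, NDUFS8, PYGL, RPL24, RPL30, RPL36, SEC61B, SLC39A4, SRSF11, TFF2 and UQCRH. Some genes of the panel and lists are not reported here. Alternatives were another pseudocount, other filters, scalings, variance models, a joint fit, the replicate block and leaving out each library. Removal of ribosomal RNA rows was added after seeing the data. No sequence table was used here, so no sequence is printed.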

Additional observations from a re-analysis of the deposited data

Results flagged for a closer look

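Each named gene and each value per library was examined for 1 library far from the other 3 of its diet (Dixon's criterion). This marked 24 of 417 groups of 4, and chance marks about 1 in 20 groups. CON 1 was the library set apart in 8 of them and SA 2 in 4.

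CON 1 stood above the other 3 CON livers for 8 genes. IGFBP1, which binds insulin-like growth factors, had 1307 TPM against 19.6 to 80.4 TPM. G6PC1, the last step of glucose release, had 1289.7 TPM against 87.3 to 250.4 TPM. LPIN2, a phosphatidate phosphatase, had 37.9 TPM against 20.7 to 22.1 TPM. MTTP, which loads lipid onto apolipoprotein B, had 53.3 TPM against 29.7 to 32.5 TPM. CYP2E1, a cytochrome P450, had 10707 TPM against 4861 to 5851 TPM, and FASN, the fatty acid synthase, 1.95 TPM against 0.99 to 1.13 TPM. FECH, the last enzyme of heme synthesis, had 28.0 TPM against 18.4 to 19.3 TPM, and SLC40A1, the iron exporter, 184 TPM against 119 to 129 TPM.

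In the other CON livers, B2M, the light chain of MHC class I, had 866 TPM against 435 to 484 TPM in CON 2, and the clock-linked repressor BHLHE40 had 57.3 TPM against 109 to 116 TPM there. CON 3 was high for MRPL40, of the mitochondrial ribosome, at 45.5 TPM against 32.4 to 33.9 TPM. RPL36, of the large ribosomal subunit, had 304 TPM against 0 to 3.05 TPM in CON 3. CON 4 was low for PUM2, an RNA-binding repressor, at 10.0 TPM against 11.9 to 12.2 TPM, and for the clock kinase CSNK1E, at 1.95 TPM against 2.50 to 2.60 TPM. FAM174C had 0.51 TPM in CON 4 and was listed at 0 in the other 3.

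Among SA livers, SA 2 had the most COX3, a mitochondrially encoded subunit of cytochrome c oxidase, at 114384 TPM against 79596 to 81609 TPM. It had less of MMUT, which turns methylmalonyl-CoA into succinyl-CoA, at 6.93 TPM against 25.7 to 27.5 TPM, and of FECH, at 2.37 TPM against 3.04 to 3.11 TPM. LSMEM1 was high there, at 18.1 TPM against 5.52 to 7.25 TPM. SA 3 was high for the chaperone HSPA8, at 138 TPM against 97.5 to 99.95 TPM, and for the peroxiredoxin PRDX4, at 18.5 TPM against 5.69 to 7.16 TPM, and low for PTRHD1, at 1.85 TPM against 2.15 to 2.21 TPM. PDK4, which switches off pyruvate dehydrogenase, had 75.5 TPM against 43.3 to 48.4 TPM in SA 1. SA 4 had 10611 genes at 1 TPM or more, against 10216 to 10232 in the other 3.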

How the results depend on the processing

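The counts of called genes depended most on the scaling. As deposited, 603 genes were higher and 6842 lower. Removal of the mitochondrial rows gave 1880 and 2243, quantile normalization 1886 and 2440, median centring of each library 1949 and 2286, and removal of mitochondrial and ribosomal RNA rows, chosen after seeing the data, 2040 and 1616. A filter at 5 TPM, which tests fewer genes, gave 314 and 4304, and 302 higher and 1713 lower in both scalings, against 590 and 2193. Leaving out 1 library gave 495 to 707 higher and 6253 to 7032 lower as deposited, and 479 to 695 higher and 1479 to 2625 lower in both scalings. The pseudocount of 0.1, no filter on low values, the fit without trend, array weights and the joint fit of 32 libraries kept these 4 counts within 1.5 times. In the joint fit C1R and ALB were no longer called after rescaling (limma adjusted p = 0.212 and 0.302).

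With the replicate number as a block, 565 genes were higher and 6507 lower as deposited, and 552 and 1794 in both scalings. The numbers do not pair sheep of the 2 diets: same-numbered livers had correlations of their deviations from the group means of 0.085, −0.061, 0.156 and −0.185. Of the named genes called in both scalings, 31 of 33 that rose and 91 of 98 that fell kept the call under the block.

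The difference in genes at 1 TPM or more, −1449 as deposited, became 335 after removal of the mitochondrial rows. Without 1 library it was −1546 to −1352. The number of genes that hold 50% of the non-mitochondrial TPM differed by 3.00 on average, and by −1.75 to 9.25 without 1 library, with a sign below 0 without CON 4 (−1.58), SA 3 (−1.08) or SA 4 (−1.75). The difference in mitochondrial share was 32.2 to 38.4 percentage points without 1 library.

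Changes of named genes that turned from below 0 as deposited to above 0 were these. After removal of the mitochondrial rows they were ACSM3 0.11, ATF5 0.83, CEBPA 0.34, CEBPB 0.89, COX4I1 0.17, CPT1A 0.057, FASN 0.57, FOXA2 0.89, FTH1 0.40, GABARAP 0.94, GCGR 0.94, HAMP 0.39, HNRNPA2B1 0.086, HPD 0.33, IER2 0.19, IGFBP4 0.37, POLRMT 0.24, RPL23A 0.16, SDHD 0.70, SLIRP 0.54, SPP2 0.43, SUCLG1 0.19, SUCLG2 0.29, TFAM 0.51 and VTN 0.30. After quantile normalization they were ACSM3 0.14, ATF5 0.92, CEBPA 0.34, CEBPB 0.97, COX4I1 0.10, CPT1A 0.19, FASN 0.53, FOXA2 0.80, FTH1 0.38, GABARAP 0.92, GCGR 0.97, HAMP 0.29, HNRNPA2B1 0.19, HPD 0.20, IER2 0.17, IGFBP4 0.31, PER3 0.031, POLRMT 0.18, RPL23A 0.27, SDHD 0.68, SLC25A1 0.0049, SLIRP 0.60, SPP2 0.50, SUCLG1 0.26, SUCLG2 0.27, TFAM 0.43 and VTN 0.34. After median centring they were ATF5 0.65, CEBPA 0.18, CEBPB 0.71, FASN 0.72, FOXA2 0.78, FTH1 0.22, GABARAP 0.76, GCGR 0.77, HAMP 0.20, HPD 0.14, IER2 0.012, IGFBP4 0.19, POLRMT 0.29, SDHD 0.52, SLIRP 0.35, SPP2 0.24, SUCLG1 0.014, SUCLG2 0.11, TFAM 0.44 and VTN 0.12. With mitochondrial and ribosomal RNA rows removed they were ACSM3 0.24, ATF5 0.96, CEBPA 0.46, CEBPB 1.02, COX4I1 0.30, CPT1A 0.18, FASN 0.67, FOXA2 1.01, FTH1 0.53, GABARAP 1.07, GCGR 1.07, HAMP 0.52, HNRNPA2B1 0.21, HPD 0.46, IER2 0.32, IGFBP4 0.50, PER3 0.12, POLRMT 0.35, RPL23A 0.29, SDHD 0.83, SERPINA1 0.13, SLC25A1 0.062, SLIRP 0.66, SPP2 0.56, SUCLG1 0.32, SUCLG2 0.42, TFAM 0.63 and VTN 0.43. With array weights they were ATF5 0.16, FASN 0.011, GABARAP 0.20 and GCGR 0.090. Genes whose sign changed when 1 library was left out had these ranges: ANXA4 −0.0089 to 0.25, APOC3 −0.086 to 0.52, ATF5 −0.34 to 0.17, CAT −0.33 to 0.34, CEBPB −0.27 to 0.23, FASN −0.28 to 0.11, FOXA2 −0.23 to 0.20, GABARAP −0.30 to 0.48, GCGR −0.23 to 0.17, IER2 −1.24 to 0.11, MRPL24 −0.050 to 0.46, SDHD −0.49 to 0.055, SEC61B −0.11 to 0.19 and SLC25A10 −0.10 to 0.49. The cause of these turns was not tested.

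TPM carry no depth, so how well low genes were measured is unknown, and 4 libraries per diet limit the precision. Opposite-strand overlap, protein length and promoters were not analysed, because no strand, protein or promoter table was used here.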

Other observations

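Some gene groups were not described above, and their counts are read beside the 19.0% of all tested genes that fell and the 5.10% that rose. Among iron and metal genes 7 of 24 fell (29.2%) and 1 rose (4.17%), and the one that rose was SLC39A4, a zinc importer, at 4.48 to 7.28 TPM in CON and 9.03 to 35.7 in SA (rescaled 2.25, limma adjusted p = 0.00208). In the bile acid list 5 of 19 fell (26.3%) and 0 rose. ABCC2, which exports conjugated bile pigments into bile, fell, at 39.7, 31.8, 32.9 and 43.2 TPM in the CON libraries and 7.95, 4.81, 5.77 and 3.3 TPM in the SA libraries. The groups did not overlap. Among cell cycle genes 5 of 18 fell (27.8%, 3 to 9 without CON 1, CON 2, SA 1, SA 2 or SA 4) and 0 rose, and among apoptosis and DNA damage genes 4 of 25 fell (16%, 2 to 7 without CON 3 or SA 2) and 0 rose. Of glucocorticoid targets 4 of 16 fell (25%), and of the histone genes 1 of 12 fell (8.33%, 2 without SA 2 or SA 4) and 2 rose (16.7%, 1 to 4 without CON 1, CON 2, CON 3, SA 1, SA 2, SA 3 or SA 4). G6PC1, the last step of glucose release, was named after its values were seen, at 1289.7, 250.4, 169 and 87.3 TPM in the CON libraries and 65.8, 5.03, 26.6 and 39 TPM in the SA libraries. CON 1 was again far above the other CON livers, and G6PC1 did not pass after rescaling (−2.44, limma adjusted p = 0.0601).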
